A study of Homo sapiens with 24 samples.

Results

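The 10 genes of SMAD feedback and ID control followed here in 22Rv1 cells were the inhibitory SMADs SMAD6 and SMAD7, the receptor-regulated SMAD3, the corepressors SKIL, SKI and TGIF1, and the inhibitors of differentiation ID1, ID2, ID3 and ID4. They were chosen by name, with earlier results of these data known, and all 10 were found among the 60232 genes of the count table. 22Rv1 is an established line of human prostate carcinoma cells. Cells were given DMSO, the vehicle, or 1 of the small molecules KB02 and KB05, known here by code name, each at 200 µM. Compound exposure lasted 1 h and was followed by 2 h of recovery, and the samples are labelled 3 h. The library names carry a 2 h tag, taken here as the recovery time. Each of the 3 groups held 3 libraries, described as biological triplicates of this 1 cell line.

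Ligands of the TGF-beta and BMP families bind paired serine/threonine kinase receptors, which phosphorylate SMAD proteins that then enter the nucleus with SMAD4. BMP receptors act through SMAD1, SMAD5 and SMAD9, and TGF-beta and activin receptors through SMAD2 and SMAD3. SMAD6 and SMAD7 block the receptors and are themselves induced by the pathway, SKI, SKIL and TGIF1 repress SMAD target genes, and the ID genes are classical BMP targets whose proteins bind basic helix-loop-helix (bHLH) transcription factors and keep them off DNA.

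Levels are CPM, counts scaled to equal library size, after scaling of the libraries by trimmed mean of M-values (TMM) factors, and total counts ran from 15506975 to 21900548 per library. A count of 3 in a library corresponds to 0.129 to 0.195 CPM, far under the lowest member value of 8.91 CPM. All 9 markers of the prostate luminal line, such as the keratin gene KRT8 (894 to 1253 CPM), were detected in every library. Of the 9, 7 were called in each comparison with DMSO (77.8%, beside 46.1% of all genes tested for KB02 and 39.8% for KB05). With KB02, 2 were higher and 5 lower, and with KB05 5 were higher and 2 lower. The summed level of the 9 ran from 2490 to 2858 CPM with DMSO, 2358 to 2506 in KB02 and 2991 to 3044 in KB05. EPCAM, an epithelial adhesion gene, averaged 169, 62.0 and 130 CPM in the same order. Among 11 markers of other cell types, the basal keratin KRT5 was at 0 in 8 of 9 libraries and TP63 in 5. VIM (26.0 to 49.2 CPM), COL1A1 (13.2 to 27.5), PTPRC (6.84 to 18.6) and CHGA (2.05 to 5.53) were detected in every library. The summed level of the 11 ran from 299 to 353 CPM with DMSO, 191 to 214 in KB02 and 261 to 284 in KB05. Most of that sum was SYP, a synaptic vesicle gene, at 247, 124 and 206 CPM on average, and the monocyte gene CD14 was at 0.541, 8.80 and 0.397 CPM; the part of these marker shifts in the member results was not tested. In bulk RNA, fewer cells of a kind and less RNA per cell cannot be told apart.

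KB05 raised 8 of the 10 genes and lowered 1, and KB02 raised 6 and lowered 1. Under KB02 the largest rises were those of SMAD6, SKIL and TGIF1, with fold changes of 2.31, 2.02 and 1.94, while ID1 fell 1.98-fold. Under KB05 all 4 ID genes rose, ID3 by 3.80-fold, together with TGIF1, SMAD6 and SMAD7. In KB02 against DMSO 7 of 10 members passed an adjusted p of 0.05, against 46.1% of the 18379 genes tested, and in KB05 against DMSO 9 of 10 passed, against 39.8%. The 8 that rose with KB05 compare with 18.7% of all genes higher, and the 6 that rose with KB02 with 22.8%. Because the members were chosen with earlier results known, the shares in this paragraph describe the set and are not a test of it. Of all KB02 calls, 49.5% were higher, and 63.8% with scaling by library size only. Libraries of the groups compared did not overlap for 8 members under KB02 (53.5% of all genes) and for 10 under KB05 (49.2% of all genes). The members' median log2 fold change was 0.42 for KB02 and 0.96 for KB05, beside 0.00 over all genes tested in each comparison. Both comparisons share the same 3 DMSO libraries.

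**Figure D1:**
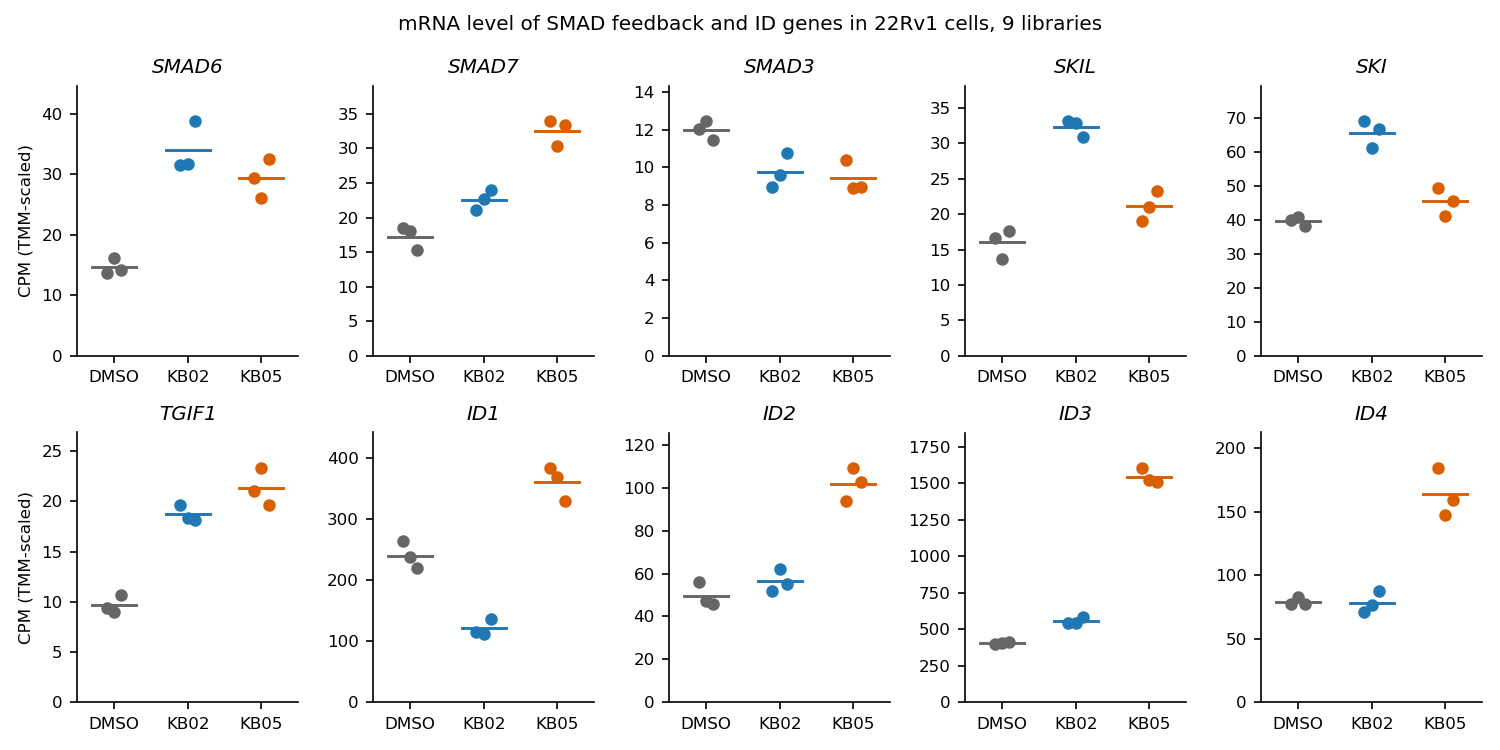
TMM-scaled CPM of each gene (y axis, linear, from 0) in the 3 DMSO, 3 KB02 and 3 KB05 libraries; points are libraries and bars are group means. SMAD6 and TGIF1 are high with both compounds, SKIL and SKI are highest with KB02, and the ID genes are highest with KB05, with ID1 lowest with KB02.

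**Figure D2:**
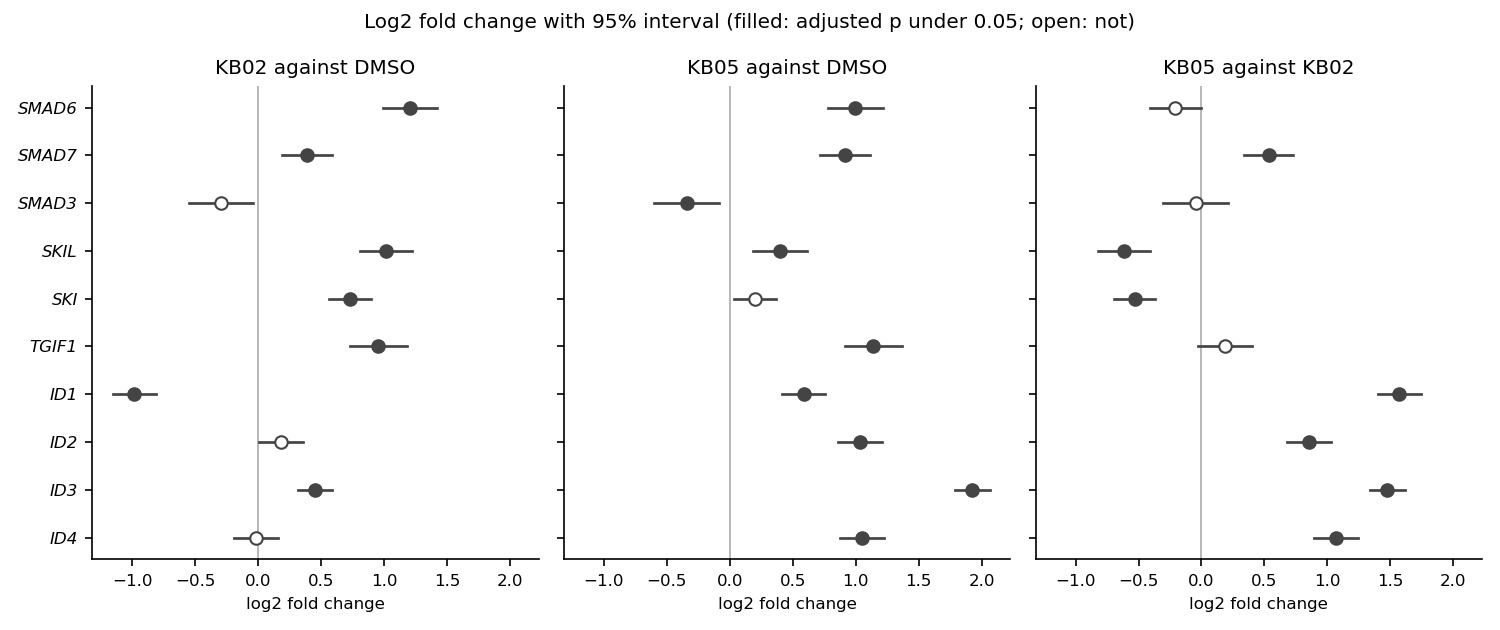
Log2 fold change (x axis) of the 10 genes in the 3 comparisons, with 95% intervals from the edgeR fit; filled points have an adjusted p under 0.05. ID1 lies at -0.99 for KB02 and 0.59 for KB05, and ID3 reaches 1.93 for KB05.

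SMAD6 and SMAD7, the inhibitory SMADs, rose with both compounds but in different proportions. SMAD6 (ENSG00000137834.15, chr15:66702228-66782848 on GRCh38 as for all gene positions here, plus strand), which preferentially restrains BMP receptors, stood at 13.7, 16.2 and 14.2 CPM with DMSO, at 31.5, 31.8 and 38.8 CPM with KB02 and at 29.4, 26.1 and 32.5 CPM with KB05. Every treated library was above every DMSO library, and the 2 compounds overlapped. The log2 fold change was 1.21 ± 0.10 (SE, adjusted p = 3.57e-11) for KB02 and 1.00 ± 0.11 (adjusted p = 7.49e-09) for KB05. SMAD7 (ENSG00000101665.9, chr18:48919853-48952052, minus strand), which acts on TGF-beta as well as BMP receptors, had 18.4, 18.0 and 15.3 CPM with DMSO, 21.1, 22.6 and 23.9 CPM with KB02 and 33.9, 30.4 and 33.4 CPM with KB05. Its 3 groups did not overlap and stood in the order DMSO, KB02, KB05. Its log2 fold change was 0.38 ± 0.10 (adjusted p = 0.00154) for KB02 and 0.92 ± 0.10 (adjusted p = 6.27e-09) for KB05. As a log2 ratio of CPM within each library, SMAD7 over SMAD6 was 0.23 ± 0.17 (SD, n = 3) in DMSO, -0.59 ± 0.10 in KB02 and 0.15 ± 0.10 in KB05, so that only KB02 libraries held more SMAD6 than SMAD7 reads. Reads here are not corrected for gene length.

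The proximal promoter of SMAD6 is shown because, among the 9 members with a RefSeq promoter window, it alone held the palindromic SMAD element GTCTAGAC. The 250 bases before the start, at chr15:66701986-66702235 on GRCh38.p14, plus strand, are given 5′ to 3′ with the palindrome in capitals, beginning 12 bases before the start.
SMAD6: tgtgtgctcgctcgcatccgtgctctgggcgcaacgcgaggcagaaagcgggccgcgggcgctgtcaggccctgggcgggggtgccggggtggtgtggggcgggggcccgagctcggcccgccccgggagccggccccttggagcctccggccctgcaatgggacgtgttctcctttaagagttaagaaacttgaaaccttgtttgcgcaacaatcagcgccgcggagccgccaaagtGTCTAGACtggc
This 8-base string was present in 0.202% of 35116 RefSeq promoter windows of 300 bases, searched on both strands. The shorter SMAD box CAGAC, which the palindrome does not contain in full on either strand, was in 45.3% of windows and in at least 1 window of 6 members, namely ID3, ID4, SKIL, SMAD3, SMAD7 and TGIF1. A match describes letters in a window and not a bound site.

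SMAD3 (ENSG00000166949.17, chr15:67063763-67195195, plus strand), the transcription factor activated by TGF-beta and activin receptors, was the 1 member lower with KB05. It had 12.0, 12.4 and 11.4 CPM with DMSO, 8.96, 9.59 and 10.8 CPM with KB02 and 10.4, 8.91 and 8.97 CPM with KB05. All treated libraries were under all DMSO libraries, by a small margin. SMAD3 fell by 0.34 ± 0.13 on the log2 scale with KB05 (adjusted p = 0.0306), and its log2 fold change of -0.30 ± 0.12 with KB02 did not pass (adjusted p = 0.0512). The call for KB05 was lost when DMSO library 1 or 2, or KB05 library 2 or 3, was left out (adjusted p = 0.0577 to 0.101), while that for KB02 passed in limma voom (0.0356) and without KB02 library 3 (0.0288). SMAD3 shares 182 exon bases with the antisense gene AC087482.1, which had at most 4 counts in a library, and whether the libraries keep strand is not stated.

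The corepressors split by compound. SKIL and SKI rose most with KB02, while TGIF1 rose to a like level with both. SKIL (ENSG00000136603.14, chr3:170357678-170396835, plus strand), also called SnoN, is a SMAD-binding repressor whose protein is degraded and whose gene is induced on TGF-beta signalling. It had 16.7, 13.7 and 17.6 CPM with DMSO, 33.1, 32.9 and 30.9 CPM with KB02 and 19.1, 21.0 and 23.3 CPM with KB05. The KB02 libraries stood apart from the rest, and KB05 lay between with no overlap. The log2 fold change was 1.02 ± 0.10 (adjusted p = 6.99e-10) for KB02 and 0.40 ± 0.10 (adjusted p = 0.00264) for KB05. SKI (ENSG00000157933.10, chr1:2228695-2310119, plus strand), the relative of SKIL first known as an oncogene, had 39.9, 40.9 and 38.2 CPM with DMSO, 69.1, 61.3 and 66.8 CPM with KB02 and 49.6, 41.2 and 45.7 CPM with KB05. It rose by 0.73 ± 0.08 with KB02 (log2, adjusted p = 4.78e-09). With KB05 its log2 fold change was 0.20 ± 0.08 (adjusted p = 0.0505), just short of the threshold. The lowest KB05 library, at 41.2 CPM, lay above the highest DMSO library, at 40.9 CPM, and the call passed with 5 of the other settings, among them without KB05 library 2 (0.0220).

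TGIF1 (ENSG00000177426.22, chr18:3411608-3459978, plus strand), a homeodomain repressor that binds SMAD complexes, had 9.37, 8.98 and 10.7 CPM with DMSO, 19.7, 18.4 and 18.1 CPM with KB02 and 21.0, 23.3 and 19.7 CPM with KB05. Treated libraries were all well above DMSO, and the compounds touched at 19.7 CPM without overlap. The log2 fold change was 0.95 ± 0.11 (adjusted p = 1.43e-08) for KB02 and 1.14 ± 0.11 (adjusted p = 1.36e-09) for KB05. TGIF1 had the most annotated transcripts of the set, 23, with 7 RefSeq promoter windows.

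The promoter of SKIL is shown for its repeated cAMP response half-sites. The 250 bases before its start, at chr3:170357465-170357714 on GRCh38.p14, plus strand, hold TGACG or its reverse complement CGTCA 3 times, in capitals, at 79, 54 and 51 bases before the start, and the last pair overlap as the full element TGACGTCA.
SKIL: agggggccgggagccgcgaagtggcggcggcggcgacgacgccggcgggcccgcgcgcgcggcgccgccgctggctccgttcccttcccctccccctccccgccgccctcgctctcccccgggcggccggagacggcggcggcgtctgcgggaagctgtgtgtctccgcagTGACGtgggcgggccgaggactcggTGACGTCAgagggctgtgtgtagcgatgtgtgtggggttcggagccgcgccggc
The half-site TGACG, searched on both strands, was in 24.6% of all windows and, among the members, also in ID3 and in 1 of 5 windows of SMAD3. The AP-1 motif TGANTCA was in 7.71% of windows and in 4 of the 21 member windows, which belonged to SMAD3 and TGIF1. The GC-rich SMAD element GGCGCC was in 19.2% of windows and in 2 of the 21 member windows, which belonged to SKIL and SMAD3. No window was matched for SKI.

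The ID genes gave the clearest separation of the compounds. With KB05 all 4 rose. With KB02 ID1 fell, ID3 rose modestly, and ID2 and ID4 did not pass the test. ID1 (ENSG00000125968.9, chr20:31605283-31606515, plus strand), a direct BMP target in many cell types, had 263, 238 and 219 CPM with DMSO, 116, 112 and 136 CPM with KB02 and 383, 368 and 329 CPM with KB05. The 3 groups were far apart, with KB02 under and KB05 over DMSO. ID1 fell by 0.99 ± 0.08 on the log2 scale with KB02 (adjusted p = 1.18e-10) and rose by 0.59 ± 0.08 with KB05 (adjusted p = 1.97e-06). ID3 (ENSG00000117318.9, chr1:23557918-23559794, minus strand), often co-expressed with ID1, had 403, 405 and 412 CPM with DMSO, 542, 540 and 584 CPM with KB02 and 1606, 1520 and 1510 CPM with KB05. Its groups did not overlap and stood in the order DMSO, KB02, KB05. The log2 fold change of ID3 was 0.45 ± 0.07 (adjusted p = 1.4e-06) for KB02 and 1.93 ± 0.07 (adjusted p = 4.24e-20) for KB05. ID1 and ID3 thus moved in opposite directions under KB02, and the log2 ratio of ID1 to ID3 CPM went from -0.77 ± 0.15 (SD, n = 3) in DMSO to -2.20 ± 0.09 in KB02 and -2.10 ± 0.08 in KB05.

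ID2 and ID4 rose with KB05. ID2 (ENSG00000115738.10, chr2:8678845-8684453, plus strand), a partner of E proteins in lymphoid and neural cells, had 56.2, 47.1 and 45.6 CPM with DMSO, 51.9, 62.1 and 55.0 CPM with KB02 and 93.9, 109 and 103 CPM with KB05. KB02 overlapped DMSO and KB05 lay above both. Its log2 fold change was 1.04 ± 0.09 (adjusted p = 1.08e-10) for KB05 and 0.18 ± 0.09 (adjusted p = 0.0842) for KB02. The KB02 value passed with upper-quartile factors (0.0232), with scaling by library size only (0.00691), and without DMSO library 1 (0.00862) or KB02 library 1 (0.0140). ID4 (ENSG00000172201.12, chr6:19837386-19840684, plus strand), known from neural and mammary development, had 77.2, 82.6 and 77.5 CPM with DMSO, 70.7, 76.5 and 87.3 CPM with KB02 and 185, 147 and 159 CPM with KB05. KB02 libraries spanned the DMSO range, and every KB05 library was above both. ID4 rose by 1.05 ± 0.08 with KB05 (log2, adjusted p = 1.09e-10). Its log2 difference with KB02 was -0.02 ± 0.08 (adjusted p = 0.877), with a 95% interval from -0.19 to 0.15, and its sign turned with upper-quartile or library-size scaling and without any of 3 single libraries. ID2 shares 38 exon bases with the antisense gene ID2-AS1, which had 41 to 112 counts per library where ID2 had at least 750.

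The ID promoters are shown because 3 of the 4 carry a TATA sequence. The letters TATAA occurred on the sense strand within 50 bases before the start in ID1, ID3 and ID4 at 31, 29 and 29 bases, in 1 window of SMAD7 at 35 bases, and in 4.74% of all windows. The lines give the 250 bases before each start on GRCh38.p14, 5′ to 3′, at chr20:31605039-31605288 (plus strand) for ID1, chr2:8681806-8682055 (plus) for ID2, chr1:23559502-23559751 (minus) for ID3 and chr6:19837120-19837369 (plus) for ID4. Capitals mark TATAA and, in ID3, the reverse complement of the half-site TGACG, 150 bases before the start.
ID1: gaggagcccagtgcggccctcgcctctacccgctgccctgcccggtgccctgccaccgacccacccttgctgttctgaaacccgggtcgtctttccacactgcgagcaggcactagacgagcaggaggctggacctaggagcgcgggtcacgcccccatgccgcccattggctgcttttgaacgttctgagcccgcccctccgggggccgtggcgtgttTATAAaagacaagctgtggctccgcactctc
ID2: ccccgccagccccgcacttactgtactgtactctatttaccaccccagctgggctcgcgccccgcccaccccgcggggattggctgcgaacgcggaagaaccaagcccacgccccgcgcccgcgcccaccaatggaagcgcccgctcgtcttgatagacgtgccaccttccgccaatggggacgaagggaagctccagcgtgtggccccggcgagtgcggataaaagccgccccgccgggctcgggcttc
ID3: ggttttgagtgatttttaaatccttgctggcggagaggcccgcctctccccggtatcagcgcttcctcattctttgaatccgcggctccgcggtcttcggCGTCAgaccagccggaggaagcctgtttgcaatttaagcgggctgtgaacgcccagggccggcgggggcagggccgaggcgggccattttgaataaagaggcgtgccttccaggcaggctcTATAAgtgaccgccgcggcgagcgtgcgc
ID4: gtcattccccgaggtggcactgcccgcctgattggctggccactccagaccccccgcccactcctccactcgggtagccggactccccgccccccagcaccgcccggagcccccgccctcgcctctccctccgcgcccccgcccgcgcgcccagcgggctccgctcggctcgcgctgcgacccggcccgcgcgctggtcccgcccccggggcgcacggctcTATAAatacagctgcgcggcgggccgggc
The ID2 and ID3 stretches lie inside the spans of their genes in GENCODE, each of which also holds a transcript that starts farther upstream.

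Set per kilobase of merged exons, the ID genes were the most abundant members in every group. In DMSO, ID3 had 226 ± 2.80 CPM per kb (SD, n = 3) and ID1 195 ± 18.1, and their libraries did not overlap. ID4 followed with 33.7 ± 1.28, ID2 with 22.5 ± 2.59, SKI with 6.52 ± 0.23 and SMAD7 with 3.42 ± 0.34 CPM per kb, each clear of its neighbours. SKIL (2.06 ± 0.26) and SMAD6 (1.72 ± 0.15) overlapped, as did SMAD3 (1.31 ± 0.06) and TGIF1 (1.18 ± 0.11). TGIF1 stood last there but seventh, at 3.20 CPM per kb, when the longest transcript gave the length, since its merged exons span 8222 bases and its longest transcript 3030. Summed over the family, the ID level was 477 ± 17.8 CPM per kb in DMSO, 466 ± 27.5 in KB02 and 1268 ± 53.0 in KB05. With the longest transcript as length, the sums were 578 ± 16.9, 603 ± 33.5 and 1647 ± 65.3, so that the order of DMSO and KB02 turned. Per kb of merged exons, the KB02 libraries, at 449 to 498 CPM, overlapped the DMSO libraries, at 461 to 496, in that sum, but ID1's share of it went from 40.7% ± 2.27 to 21.1% ± 1.10 and ID3's from 47.5% ± 2.32 to 66.3% ± 0.94. In KB05, at a sum well above both, the shares were 23.0% ± 1.01 for ID1 and 67.8% ± 0.82 for ID3. With the longest transcript as length, the share of ID1 in DMSO, KB02 and KB05 was 33.6%, 16.3% and 17.7%.

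**Figure D3:**
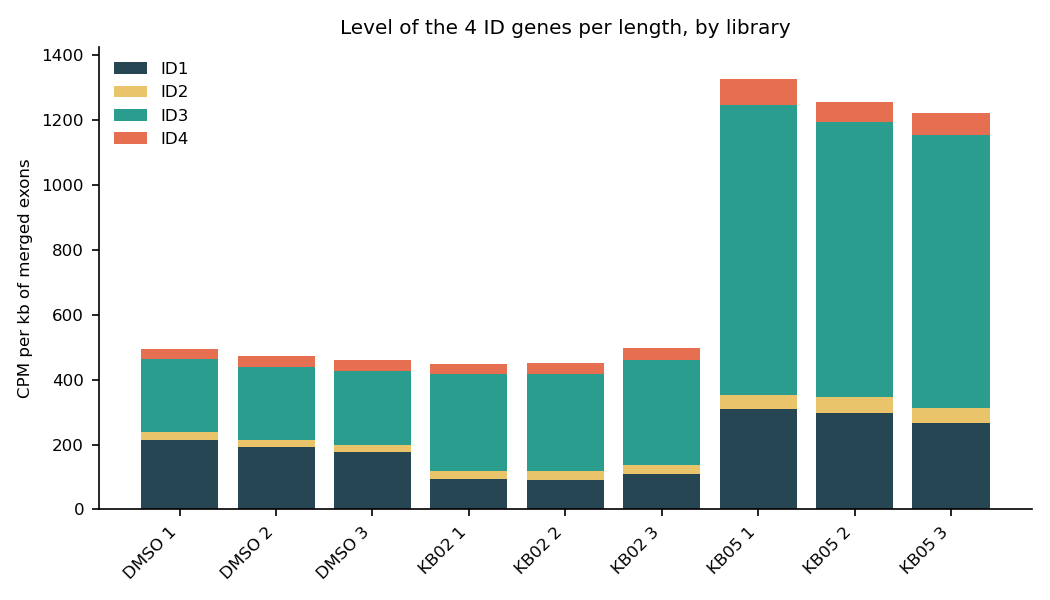
CPM per kilobase of merged exons (y axis, from 0) of ID1, ID2, ID3 and ID4, stacked, in each of the 9 libraries. The KB05 bars reach 1222 to 1326 and the others 449 to 498; the ID1 segment is smallest in the KB02 libraries.

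KB05 and KB02 were compared directly at the same dose and time, over all 10 members. ID1, ID3, ID4, ID2 and SMAD7 were higher with KB05, and SKIL and SKI were higher with KB02. Of the 10, 7 passed, against 40% of all genes tested, and 8 did not overlap, against 50.3% of all genes. The median over members was 0.36 on the log2 scale, beside 0.06 over all genes. ID1 differed most, by 1.57 ± 0.08 (log2, KB05 over KB02, adjusted p = 3.72e-14), followed by ID3 at 1.48 ± 0.07 (adjusted p = 6.35e-17), ID4 at 1.07 ± 0.08 (adjusted p = 4.74e-11) and ID2 at 0.85 ± 0.08 (adjusted p = 2.28e-09). In fold terms these are 2.97, 2.78, 2.10 and 1.81. SMAD7 was higher with KB05 by 0.53 ± 0.09 (adjusted p = 2.65e-05). SKIL was lower with KB05 by log2 -0.62 ± 0.10 (adjusted p = 7.55e-06), and SKI by log2 -0.53 ± 0.08 (adjusted p = 2.38e-06). The compounds were not told apart for 3 members. The log2 difference was -0.21 for SMAD6 (adjusted p = 0.0958, 95% interval -0.41 to -0.01), 0.19 for TGIF1 (adjusted p = 0.160, interval -0.03 to 0.40) and -0.05 for SMAD3 (adjusted p = 0.803, interval -0.31 to 0.21). The SMAD6 difference passed in 5 other settings, with adjusted p from 0.0109 with scaling by library size only to 0.0473 without KB05 library 3.

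Other genes of the pathways were followed in 8 lists of 112 genes in all, of which 95 were tested. These lists were also chosen with earlier results of these data known, so their shares of called genes are descriptive only. KB02 raised 26 of them and lowered 30 (58.9% called, beside 46.1% of all genes), KB05 raised 22 and lowered 22 (46.3%, beside 39.8%), and between the compounds 37 were higher and 18 lower with KB05 (57.9%, beside 40%). KB02 lowered many upstream genes: 8 of 15 on the ligand list against 1 higher, and 8 of 12 receptors against none higher. It also lowered 7 of 11 extracellular and membrane inhibitors against none higher. The list medians, in this order, were -0.62, -0.62 and -0.71. The ligand list and its 8 lower genes include BMP1, which encodes a metalloprotease and not a ligand (log2 -0.52, adjusted p = 2.02e-05). Of all genes, 23.3% were lower and 22.8% higher with KB02. BMP2, a BMP ligand, went from 32.6 ± 1.04 CPM (SD, n = 3) in DMSO to 15.3 ± 0.46 in KB02, a log2 fold change of -1.10 ± 0.09 (adjusted p = 2.16e-11), and rose to 52.4 ± 6.32 in KB05, by 0.68 ± 0.09 (adjusted p = 2.22e-07). INHBA, the activin A subunit, fell from 6.72 ± 0.80 to 2.52 ± 0.44 CPM with KB02 (log2 -1.42 ± 0.18, adjusted p = 1.1e-07) and was at 6.89 ± 0.76 CPM with KB05 (log2 0.04, adjusted p = 0.894). BMP4 rose with KB05, from 1.79 ± 0.04 to 7.19 ± 0.63 CPM (log2 2.00 ± 0.20, adjusted p = 2.56e-09), and to 2.98 ± 0.35 CPM with KB02 (log2 0.72, adjusted p = 0.00542). TGFB3, a TGF-beta ligand, fell with both compounds, from 23.3 ± 1.32 CPM to 11.5 ± 1.25 with KB02 (log2 -1.01 ± 0.11, adjusted p = 2.95e-09) and 11.5 ± 0.56 with KB05 (log2 -1.02 ± 0.11, adjusted p = 9.97e-09).

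Among receptors, the activin type I receptor ACVR1B fell with both compounds, from 65.3 ± 0.80 CPM to 25.2 ± 1.59 with KB02 and 36.0 ± 1.50 with KB05. The BMP receptor BMPR1B fell 2.60-fold with KB02 (adjusted p = 4.01e-05). With KB05, 5 of 12 receptors were lower and none higher (41.7% called, beside 39.8% of all genes called and 21.1% lower), with a median log2 fold change of -0.38. The call of ACVR1 there (log2 -0.59, adjusted p = 0.0440) was lost in 9 other settings, with adjusted p up to 0.147. Of 5 other SMADs, 2 rose and 1 fell with KB02 (60% called, beside 46.1% of all genes). With KB05, 1 rose and 1 fell (40% called, beside 39.8%). The largest changes with KB02 were those of SMAD1, which rose from 11.2 ± 0.67 to 18.8 ± 2.17 CPM (adjusted p = 3.33e-06), and SMAD5, which fell by 0.43 (log2, adjusted p = 0.000765). With KB05 the common partner SMAD4 fell by 0.50 (log2, adjusted p = 0.000893), from 22.4 ± 2.24 to 15.9 ± 2.51 CPM, and SMAD1 was higher by 0.33 (log2, adjusted p = 0.0317), a call lost in DESeq2, in limma voom and without DMSO library 2 or 3 or KB05 library 1 or 2 (adjusted p up to 0.177).

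BAMBI, a pseudoreceptor that dampens TGF-beta and BMP signals and is itself a target gene, moved in the same directions as ID1. It had 9.10, 10.7 and 11.8 CPM with DMSO, 6.34, 7.12 and 5.76 CPM with KB02 and 20.9, 22.8 and 29.1 CPM with KB05. No library of 1 group reached another. BAMBI fell by 0.71 ± 0.14 on the log2 scale with KB02 (adjusted p = 0.000111) and rose by 1.21 ± 0.13 with KB05 (adjusted p = 1.28e-08). TWSG1, an extracellular BMP modulator, fell 1.98-fold with KB02 (adjusted p = 2.77e-08) and 1.51-fold with KB05 (adjusted p = 0.000103). Of 21 intracellular regulators, KB02 raised 6 and lowered 2 (38.1% called, beside 46.1% of all genes). KB05 raised none and lowered 7 (33.3% called, beside 39.8%). Neither share called in either direction was above that of all genes. By direction, all KB05 calls here were lower, beside 21.1% of all genes lower and 18.7% higher. With KB02, 23.3% of all genes were lower and 22.8% higher. The coactivator EP300 rose 1.80-fold with KB02 and fell 1.49-fold with KB05, and the deubiquitinase USP9X, which acts on SMAD4, rose 2.02-fold with KB02. LEMD3, an inner nuclear membrane protein that binds SMADs, fell 1.52-fold with KB05 (adjusted p = 2.89e-07).

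Of 11 BMP target genes tested beside the members, 7 rose and none fell with KB05, with a median log2 fold change of 1.08. There 63.6% were called, beside 39.8% of all genes called and 18.7% higher. With KB02, 5 rose and 1 fell, with a median of 0.31. There 54.5% were called, near the 46.1% of all genes called, and 22.8% of all genes were higher. HEY1, a bHLH repressor induced by BMP and Notch, rose with KB05 from 1.78 ± 0.10 to 8.11 ± 0.57 CPM (log2 2.19 ± 0.20, adjusted p = 2.87e-10). Its KB02 level was 2.20 ± 0.15 CPM (adjusted p = 0.254). GATA2 averaged 102 ± 5.92 CPM in DMSO and rose with both compounds, to 233 ± 3.34 in KB02 (2.29-fold, adjusted p = 3.41e-15) and 215 ± 7.04 in KB05 (log2 1.08, adjusted p = 8.78e-14). Among 17 TGF-beta target genes, KB02 raised 8 and lowered 4 (70.6% called, beside 46.1% of all genes), and KB05 raised 8 and lowered 2 (58.8%, beside 39.8%). The AP-1 gene JUNB rose 6.31-fold with KB02 and 9.13-fold with KB05, and the repressor SNAI1 rose 18.2-fold and 8.07-fold, from 1.41 ± 0.37 CPM in DMSO. Both are also known to respond to stimuli other than TGF-beta. The matricellular gene CCN2 had 26.3 ± 3.59 CPM with DMSO, 6.25 ± 1.38 in KB02 and 53.8 ± 6.07 in KB05, and was 8.50-fold higher with KB05 than with KB02 (adjusted p = 1.58e-11). TAGLN, a smooth muscle actin-binding gene, went the other way, 3.34-fold lower with KB05 than with KB02 (adjusted p = 5.53e-10).

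Of 11 bHLH factors on the last list, which includes E proteins that ID proteins bind, HES and HEY repressors and TWIST1, 7 were tested. With KB02, 4 rose and 1 fell (all genes, 22.8% higher and 23.3% lower), and with KB05 4 rose and none fell (all genes, 18.7% higher and 21.1% lower). HES1 had 20.8 ± 3.86 CPM with DMSO, 18.4 ± 3.79 in KB02 and 80.7 ± 8.13 in KB05, a log2 fold change of 1.95 ± 0.17 for KB05 (adjusted p = 2.41e-05). The E protein gene TCF4 was higher with KB02 by 0.40 ± 0.14 (log2, adjusted p = 0.0229), a call that was lost without a filter on low counts (0.0599), without DMSO library 1 (0.0582) and without KB02 library 1 (0.0645). TWIST1 was higher with KB02 by 0.34 ± 0.10 (log2, adjusted p = 0.00463), a call lost without KB02 library 3 (0.0562), and by 0.58 ± 0.10 with KB05 (adjusted p = 1.96e-05).

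**Figure D4:**
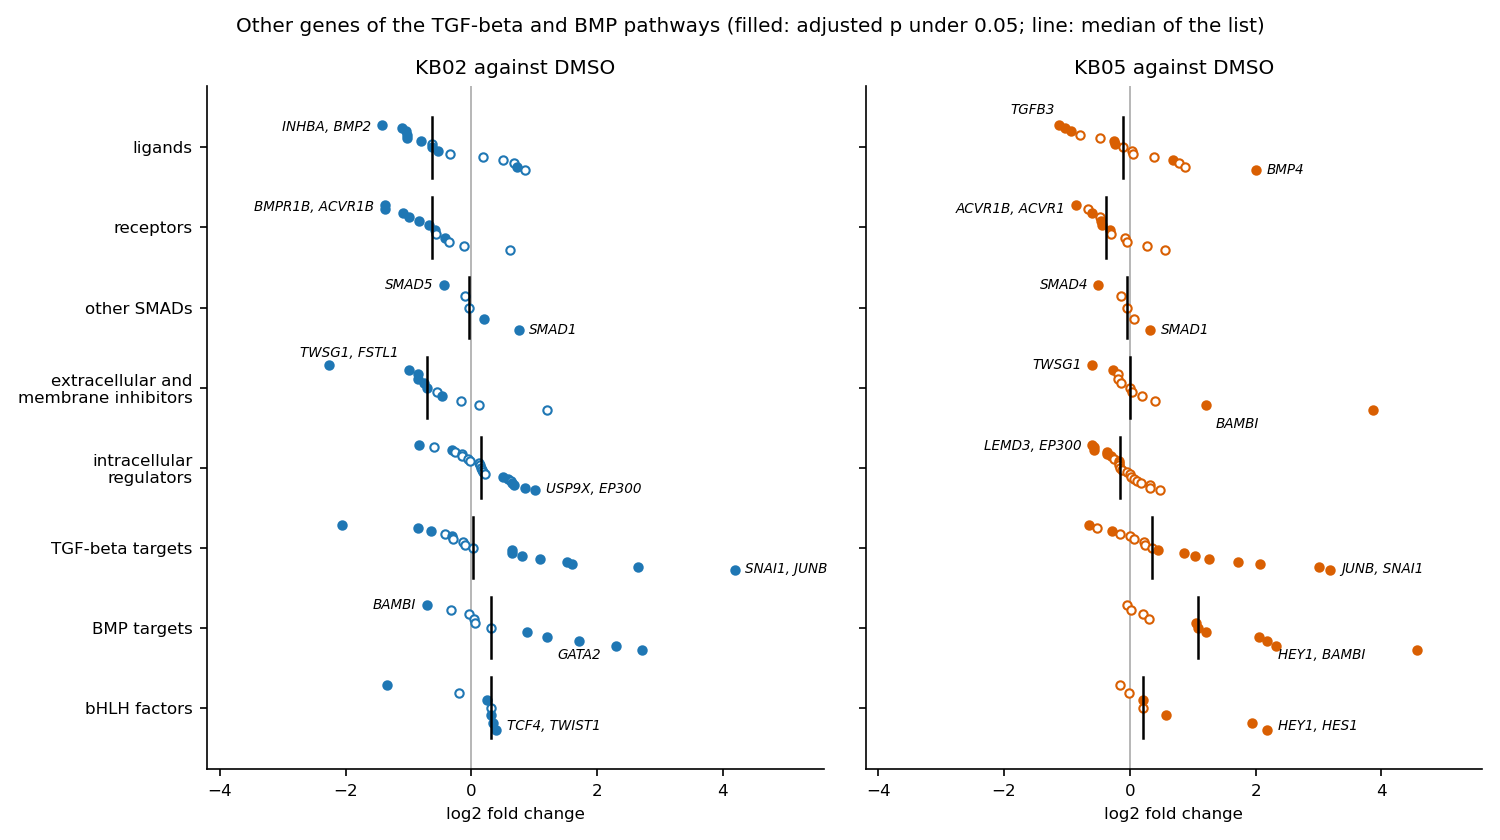
Log2 fold change (x axis) of the tested genes of each pathway list for KB02 and for KB05 against DMSO; filled points have an adjusted p under 0.05 and black bars are list medians. Names on a side are the called genes of largest change at a mean log2 CPM no lower than 1, the farther one first; ligands, receptors and extracellular inhibitors sit mostly left of 0 for KB02, and BMP targets right of 0 for KB05.

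For the 4 members with the widest range of group means, the 3 genes with the nearest pattern were found by Euclidean distance between log2 CPM values centred on each gene's own mean over the 9 libraries. ID3 was nearest to NRAV (0.465), HEY1 (0.507) and RHOB (0.512), and ID1 to the metallothionein gene MT2A (0.358), F2RL3 (0.426) and the nuclear long non-coding RNA NEAT1 (0.502). MT2A, at 265, 127 and 380 CPM with DMSO, KB02 and KB05, was close to ID1 in level as well, at 240, 121 and 360 CPM. SMAD6 was nearest to ZNF10 (0.234), YJU2B (0.284) and JMJD6 (0.298), and TGIF1 to RAB3A (0.335), ZNF543 (0.353) and ZNF628 (0.360). These distances describe 9 libraries of 3 groups and are not tests.

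**Figure D5:**
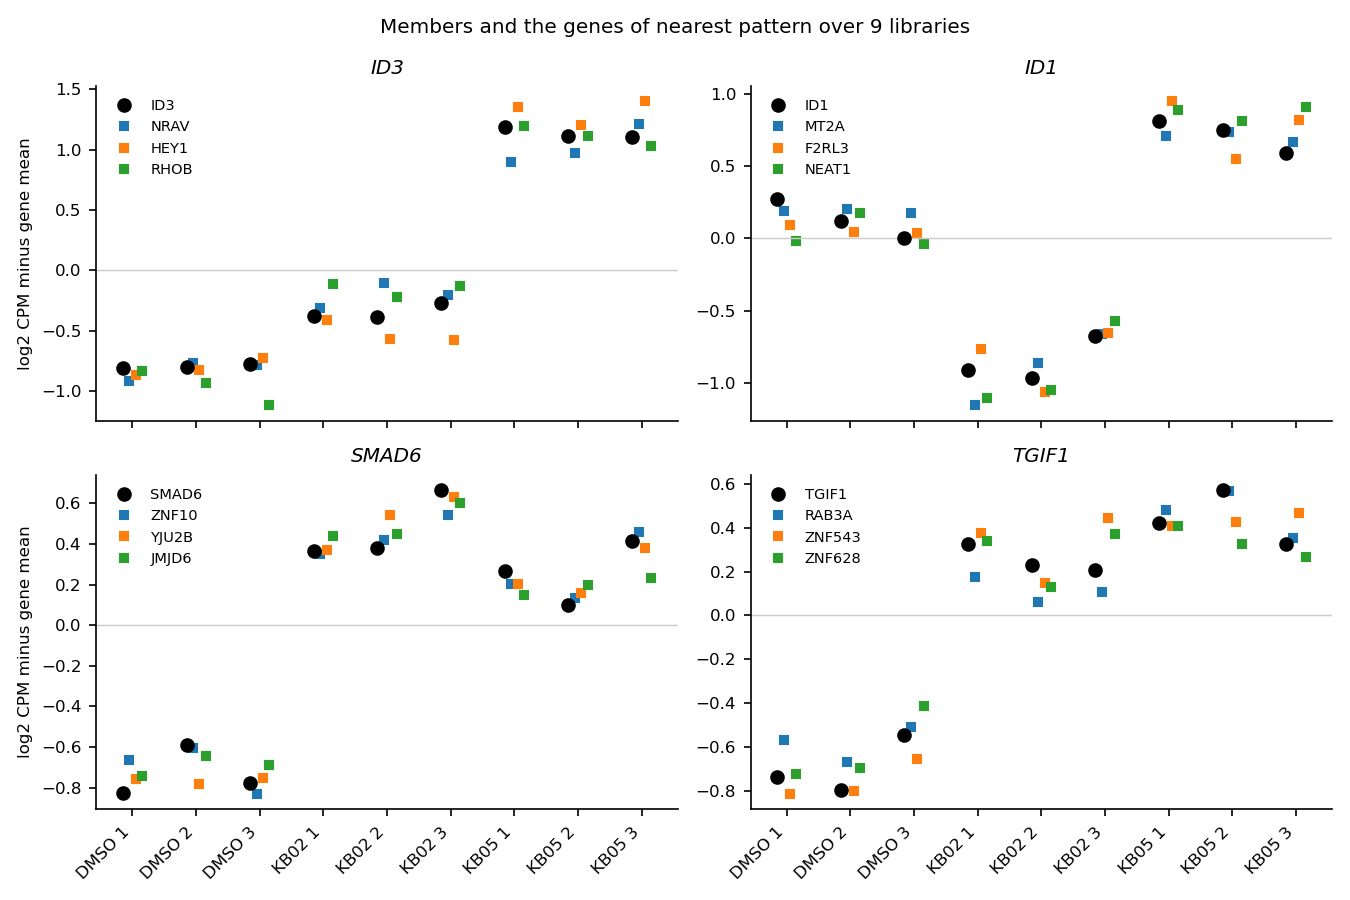
Log2 CPM minus each gene's mean (y axis) in the 9 libraries (x axis) for ID3, ID1, SMAD6 and TGIF1 (black circles) and their 3 nearest genes (coloured squares). ID1 and its neighbours are lowest in the KB02 libraries and highest in the KB05 libraries, while SMAD6 and its neighbours are high with both compounds.

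The members also differ in gene structure. The 4 ID genes span 1233 to 5609 bases, against a median of 25271 bases for the tested genes, and ID1 is shorter than all but 4.43% of them. The SMAD, SKI and TGIF genes span 32200 to 131433 bases. The 3′ untranslated region was read in 1 coding transcript per gene, the one of longest coding sequence and, among equals, of greatest length. In these regions the AU-rich pentamer ATTTA occurred in 9 of 10 members, against 66.6% of 13989 tested coding genes with such a region. The longer form TATTTAT occurred in 6 of 10 (SMAD6, SMAD7, SMAD3, SKIL, SKI and ID2), against 31.1%. Presence was not corrected for length. The median region was 975 bases long, and those of the members with TATTTAT had 1313 to 4659 bases, apart from ID2 with 776. SKIL held the pentamer 23 times in 4418 bases, a density of 5.21 per kb beside a median of 1.49. TGIF1, with 23 annotated transcripts, held none in the 471 bases of the 1 that was read. The other members ran from 1.34 per kb (ID4) to 4.57 (SMAD6). Such elements are known in short-lived messenger RNAs, and no measure of stability was made here.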

How the data were processed

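The samples were 9 RNA sequencing libraries of 22Rv1 cells (total RNA, NEBNext Ultra II RNA kit per the labels' protocols). The authors deposited estimated counts per gene, and the submitters' processing notes list Salmon 1.3.0, DESeq2 1.30.1, hg38 and GRCh38.p13. The sources used here do not give the annotation release, the summing of transcripts to genes or the strandedness. A further 15 samples of the series were not analysed here.

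Counts were rounded and tested in R 4.3.3 with edgeR 4.0.16: filterByExpr with a minimum count of 10 (18379 genes), TMM factors, and a robust quasi-likelihood fit of the 3 groups over 9 libraries without a block. Comparisons were contrasts of this fit, with p-values adjusted by Benjamini-Hochberg across the tested genes and called at an adjusted p under 0.05. All adjusted p-values are from this test unless another is named. The SE is the size of the log2 fold change divided by the square root of its F statistic. The procedure was tested on simulated counts in which few genes changed, in equal numbers up and down. A large share of genes was called in these data, so the simulation does not test the scaling here. No pair of replicates agreed within sampling noise (chi-square per degree of freedom 4.28 to 9.75), so all libraries were counted separately. P-values measure the spread between these cultures of 1 line. Counting floors cover counting error only.

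Members, gene lists and the rule for named genes were chosen with earlier results of these data known. The rule takes, per list and comparison, the 2 called genes of largest change with a mean log2 CPM of at least 1. Gene positions and lengths come from GENCODE 29 on GRCh38 and promoter windows from RefSeq (GRCh38.p14, 250 bases before to 50 after a start, 9 of 10 members matched), counted from 1. Alternatives were other scalings (DESeq2 size factors, upper quartile, library size only), no filter, DESeq2 1.42.0, limma 3.58.1 voom, a fit of 2 groups, a replicate block, and leaving out each library.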

Additional observations from a re-analysis of the deposited data

How the results depend on the processing

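Over all alternatives, genes called numbered 7692 to 8987 for KB02, 6174 to 7476 for KB05 and 6314 to 7518 between the compounds, and members called 7 to 8, 8 to 10 and 7 to 8. Of the alternative values of member log2 fold changes, 394 kept direction and side of the threshold, 4 lost and 16 gained a call, and 6 changed sign, none of them in a called result. For ID4 with KB02 the log2 fold change turned to 0.033 with upper-quartile factors and 0.11 with library size only, and ran from -0.11 to 0.098 over libraries left out. With library size only, SMAD4 with KB02 turned to 0.026 and, between the compounds, ZNF543 to -0.0056 and ZNF628 to -0.063. Leaving out 1 library at a time, INHBA with KB05 ran from -0.055 to 0.12, and between the compounds SMAD3 ran from -0.16 to 0.022, TGFB3 from -0.14 to 0.022, ZNF543 from -0.024 to 0.17 and ZNF628 from -0.071 to 0.093. The causes were not tested. Scaling by library size only moved the median of all genes by 0.13 for KB02 and by -0.11 between the compounds, and the share of calls that were higher from 49.5% to 63.8% and from 54.4% to 37.4%.

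Replicate numbers gave little sign of pairing: deviations from the group means of same-numbered libraries correlated at -0.04 to 0.08 across genes. Differently numbered libraries gave -0.07 to 0.04, so the highest correlation was in a same-numbered pair, and weak pairing was not tested. Without a block, 8470, 7321 and 7346 genes were called (KB02, KB05 and between the compounds). With the replicate block, 8600, 7476 and 7518 genes were called (KB02, KB05 and between the compounds), and 7, 10 and 7 members, SKI being gained with KB05 (adjusted p = 0.0454); the calls of ACVR1 with KB05 (0.0516) and of TWIST1 between the compounds (0.0560) were lost. Depth limits members little (at least 137 counts), but precision rests on 3 libraries a group.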
